A study of Citrus maxima and Citrus sinensis with 12 samples.

Results

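Excess boron in the root tips of C. grandis (pummelo, recorded as Citrus maxima) was examined in 6 of the 12 small RNA libraries of the study, 3 from plants given 400 µM H3BO3 (boric acid, labelled toxic) and 3 from plants given 10 µM H3BO3 (labelled control). All plants were 11 weeks old when sand culture began and received their boron level for 15 weeks, and the other 6 libraries are C. sinensis (sweet orange) under the same 2 boron levels. Each library was made from the mixed total RNA of 5 replicates, per the labels, and the labels do not say whether libraries of a group share plants, so the spread between libraries may be partly technical and every p-value below measures that spread. The deposited count table held 172 miRNA entries, and each mature sequence was counted once, which left 126 sequences of 19 to 25 nt. The tables hold small RNAs only, so the labelled tissue could not be checked against cell type markers.

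Boron is a micronutrient that cross-links pectin in the cell wall, and in excess it stops root growth. Plant miRNAs are cut from hairpin transcripts and loaded into Argonaute proteins, where they pair with nearly complementary mRNAs, which are then cleaved or translated less. Many conserved families act on transcription factors of root growth, such as the SBP factors (miR156), MYB and TCP factors (miR159 and miR319), GRF factors (miR396), auxin response factors (miR167) and class III HD-ZIP factors (miR165 and miR166), whereas others respond to nutrients or set off secondary small RNAs.

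The results turn on a small number of sequences, copied 5′ to 3′ from the deposited table of identified miRNAs, with bases 2 to 8 (the seed, used here to group sequences) in capitals. The first 4 are the 2 sequences that passed the test, each followed by the sequence that shares its seed.
miR3951: uUUCUCUUaucguuaucugug
bra-miR9563a-3p: uUUCUCUUaucuuuuaucugug
ci-miRN17: gUACUGUAgcugugagggggacgu
ptc-miR473a-5p: gUACUGUAgccgugagggggacgc
The next 6 did not pass. miR3954 came closest to the threshold, and the others were chosen among the sequences discussed below, not by rank alone. miR-RN01 and miR780, which are not shown, stood as close as some of them.
miR3954: uUGGACAGagaaaucacgguca
miR3627.2: uUGUCGCCggagagauagcacc
miR472: uCCCUACUccacccaugccaua
miR167a: uGAAGCUGccagcaugaucuga
miR167h: uGAAGCUGccagcaugaucuua
miR167b-3p: uGAAGCUGccagcaugaucuau
miR3951 and bra-miR9563a-3p are an edit distance of 2 apart and lie on the plus strand of scaffold 1, in prediction windows from 20960909 to 20961158 and from 20985765 to 20986014. ci-miRN17 differs from ptc-miR473a-5p by U11C and U24C, counted from 1 at the 5′ end. Their windows on scaffold 3, from 50071563 to 50071812 on the minus strand and from 50071419 to 50071668 on the plus strand, overlap by 106 bases. No label or file header names the genome build, and genes at these positions were not analysed here.

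The C. grandis libraries held 367449 to 542152 counts over sequences counted once, and replicate libraries had Pearson correlations of log2 CPM of 0.953 to 0.976. CPM below is the count scaled to a fixed library size after trimmed-mean normalisation. A read covers a whole mature miRNA, so CPM was not divided by length. Differences are log2 values of 400 over 10 µM from edgeR's quasi-likelihood test on all 12 libraries, with SE. The p-values were adjusted over the 124 sequences with enough counts in these 12 libraries, some of them through C. sinensis alone. Values are mean ± SD (n = 3), and libraries are given in the order of replicates 1, 2 and 3.

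The comparison asked which miRNAs differed after long growth of C. grandis under excess boron. In the edgeR test on all 12 libraries, miR3951 and ci-miRN17 were called as lower, and no sequence was called as higher. This is 2 of 124 sequences, or 1.61%, and 0 (0%) in the upward direction. Without adjustment, 20 sequences (16.1%) had p under 0.05. Of these 11 were higher (8.87%) and 9 lower (7.26%), while DESeq2 called 5 sequences (4.03%), of which miR3627.2 and miR167h were higher (1.61%) and 3 lower (2.42%). The median log2 difference of all sequences was 0.0117, with 64 higher (51.6%) and 60 lower values (48.4%). The 400 µM libraries did not overlap those at 10 µM for 16 sequences (12.9%), 9 higher (7.26%) and 7 lower (5.65%) sequences. Fewer cells of a type and less RNA per cell cannot be told apart in these bulk samples.

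**Figure D1:**
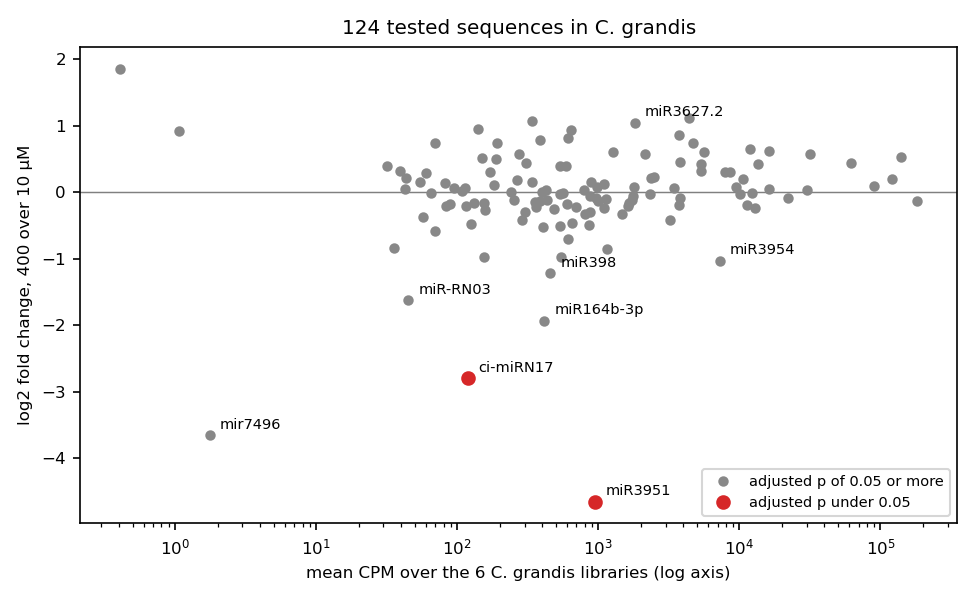
Log2 difference between 400 and 10 µM in C. grandis (vertical axis) against the mean CPM over the 6 C. grandis libraries (horizontal log axis) for the 124 tested sequences, with those of adjusted p under 0.05 as large red points. miR3951 at −4.65 and ci-miRN17 at −2.79 lie far below the rest at their level, while mir7496 and the points at the far left rest on few counts.

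miR3951, a 21-nt miRNA of a family described in citrus, had 711, 589 and 4175 CPM at 10 µM and 28.4, 101 and 91.4 CPM at 400 µM. Each 400 µM library lay below each 10 µM library, and within the 10 µM group replicate 3 stood far above the others. The underlying counts were 318, 334 and 1935 against 15, 41 and 33. The mean fell from 1825 ± 2036 to 73.4 ± 39.3 CPM, a log2 difference of −4.65 (SE 0.75, adjusted p = 0.00544). Without 10 µM replicate 3 it was −3.29, still past the threshold. The authors' target table lists 1 predicted target of miR3951 in C. grandis, annotated with leucine-rich repeats.

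ci-miRN17, a 24-nt sequence with no family number, had 143, 79.3 and 399 CPM at 10 µM and 17.0, 24.5 and 49.8 CPM at 400 µM. The groups did not overlap, and the highest library was again 10 µM replicate 3. Its counts were 64, 45 and 185 against 9, 10 and 18. The mean fell from 207 ± 169 to 30.5 ± 17.2 CPM, a log2 difference of −2.79 (SE 0.55, adjusted p = 0.0167), which was −2.03 without 10 µM replicate 3 and −2.48 with adjusted p = 0.103 without 400 µM replicate 1. When only C. grandis was fitted, with its 6 libraries, the spread was wider (biological coefficient of variation 37.2% against 30.3% over all 12). That edgeR fit called 0 sequences, with 12 at unadjusted p under 0.05, and miR3951 had adjusted p = 0.0733 and ci-miRN17 0.189.

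The near-identical partners were not called, and no test compared a called sequence with its partner. bra-miR9563a-3p, named after a miRNA of Brassica rapa, had 69371, 55046 and 32524 CPM at 10 µM and 119783, 41484 and 52711 CPM at 400 µM. These groups overlapped, and the highest and the lowest library were 400 µM replicate 1 and 10 µM replicate 3, the reverse of their order for miR3951. Its log2 difference was +0.45 (SE 0.37, 95% interval −0.35 to 1.25, adjusted p = 0.608). For ptc-miR473a-5p the values were 659.7, 1073 and 537 CPM at 10 µM and 869, 88.3 and 687 CPM at 400 µM. Its groups overlapped too, with 400 µM replicate 2 far below the rest, and the log2 difference was −0.46 (SE 0.54, 95% interval −1.65 to 0.72). No source used here says how the counting treated mismatches, and the part of shared reads in these values was not tested.

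Both called sequences were scarce in C. grandis and abundant in C. sinensis. In C. sinensis miR3951 averaged 223026 ± 38822 CPM (10 µM) and 216248 ± 29504 CPM (400 µM), and ci-miRN17 39706 ± 2505 and 39404 ± 3141 CPM. Relative to the C. sinensis mean, miR3951 in C. grandis stood at 0.324%, 0.268% and 1.90% at 10 µM and at 0.0129%, 0.0458% and 0.0416% at 400 µM. For ci-miRN17 the corresponding levels were 0.362%, 0.201% and 1.01% against 0.0431%, 0.0620% and 0.126%. Thus both sequences were highest in the same library, 10 µM replicate 3, and lowest in 400 µM replicate 1. In the opposite direction, bra-miR9563a-3p was 36.7-fold more abundant in C. grandis.

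Of the 124 sequences, 5 had a mean CPM at least 20 times as high in C. sinensis, a limit chosen after the values were seen. They are miR3951, ci-miRN17, mir7496, scaffold_3_10325 and scaffold_8_42593. The 24-nt mir7496 had 2, 1 and 2 counts at 10 µM and 0, 0 and 0 at 400 µM, too few for a fold. scaffold_3_10325 had 0, 0 and 0 against 0, 1 and 0 counts, and scaffold_8_42593 had 0, 1 and 0 against 1, 0 and 1 counts. A count of 0 allows up to 3 counts in a library. These low-count sequences passed the count filter only through C. sinensis, and they remain in the totals and splits given here. mir7496 is among the 9 lower sequences at unadjusted p under 0.05 and the 7 lower ones without overlap. scaffold_3_10325 (+1.86) and scaffold_8_42593 (+0.93) are among the 64 higher values. Among the other 119 sequences edgeR called 0, with 11 higher and 6 lower at unadjusted p under 0.05, and DESeq2 called 3, miR3627.2, miR167h and miR3954. The part of reads of C. sinensis origin in the C. grandis libraries was not tested.

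**Figure D2:**
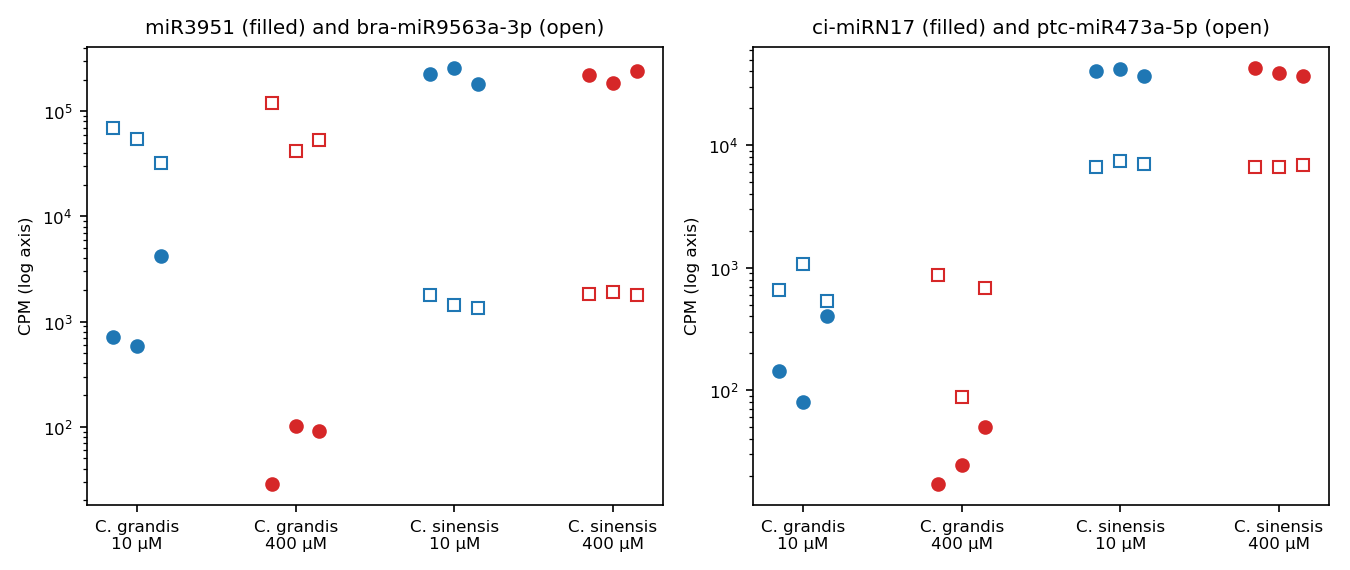
CPM in each library (log axis) of miR3951 with bra-miR9563a-3p (left) and of ci-miRN17 with ptc-miR473a-5p (right), by species and boron level, with replicates 1 to 3 from left in each group. The called sequences (filled) are lower at 400 than at 10 µM in C. grandis and lie at 181769 to 258839 CPM (miR3951) and 36738 to 42867 CPM (ci-miRN17) in all C. sinensis libraries.

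The same contrast in C. sinensis gave a log2 difference of −0.04 for miR3951 (95% interval −1.39 to 1.30) and of −0.01 for ci-miRN17 (−0.97 to 0.95), and edgeR called 0 sequences there (0%), with 2 at unadjusted p under 0.05 (1.61%). The difference of the boron effects, C. grandis minus C. sinensis, was tested in the same fit and called 1 of 124 sequences (0.806%). miR3951 had a difference of −4.61 (SE 0.95, 95% interval −6.68 to −2.54, adjusted p = 0.0477). ci-miRN17 stood at −2.78 (95% interval −4.32 to −1.25, adjusted p = 0.119). With the replicate number as a block within each species both passed, ci-miRN17 at −2.62 (adjusted p = 0.0046). The miR3951 call is close to the threshold. It was lost without any 1 of the C. sinensis libraries or any 1 of the C. grandis 400 µM libraries, while its value ranged from −5.01 to −3.17 over all libraries left out. Without adjustment, the difference had p under 0.05 for 6 sequences (4.84%), being positive for 1 (0.806%) and negative for 5 (4.03%).

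Below the threshold, miR3954 came next. This 22-nt citrus miRNA is known to set off phased secondary small RNAs. It had 9849, 7251 and 12091 CPM at 10 µM and 3496, 5907 and 4907 CPM at 400 µM. Every 400 µM library lay below every control. The mean was 9730.4 ± 2422 against 4769.9 ± 1211 CPM, a log2 difference of −1.03 (SE 0.26, adjusted p = 0.0789). DESeq2 (adjusted p = 0.00732) and total-count scaling (adjusted p = 0.0388) called it, and edgeR did so without 400 µM replicate 2 or without 10 µM replicate 2. In C. sinensis the log2 difference was −0.27, and the difference between the species was −0.76 (95% interval −1.55 to 0.04). In the authors' target table it has 1 predicted target, a gene for weak chloroplast movement under blue light.

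miR472, of a superfamily that cleaves transcripts of NBS-LRR disease-resistance genes, had 9498, 9594 and 8807 CPM at 10 µM and 18068, 10659 and 15002 CPM at 400 µM. The 10 µM libraries lay close together and below every 400 µM library. The mean was 9299.6 ± 429 against 14577 ± 3723 CPM, a log2 difference of +0.65 (SE 0.20, adjusted p = 0.131). csi-miR472, a second 22-nt form, averaged 11507 ± 1363 and 15427 ± 5149 CPM with overlapping groups, at +0.42 (95% interval −0.12 to 0.97), and at +0.12 without 400 µM replicate 1. In the list of phased siRNA triggers, 2 of 5 sequences were higher and 3 lower, 0 passed, and the median was −0.12 beside 0.0117 over all sequences. With 1 library left out it ran from −0.449 to −0.0338. The list includes the 24-nt ata-miR9863a-3p and gma-miR482a-5p. Among its 3 sequences under 23 nt, 2 were higher and 1 lower, with a median of 0.423.

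miR3627.2, of a family described in woody plants, had 968, 1264 and 1309.7 CPM at 10 µM and 2369.8, 1332 and 3622 CPM at 400 µM. The groups did not overlap, although 400 µM replicate 2 lay just above the control range. Its mean was 1181 ± 185 against 2441 ± 1147 CPM, a log2 difference of +1.05 (SE 0.31, adjusted p = 0.131), called by DESeq2 at adjusted p = 0.0372. Without 400 µM replicate 3 it was +0.65, and without 400 µM replicate 2 edgeR called it at +1.17. miR3627.1, which carries C8A, A13C, A15G and A17G relative to miR3627.2, stood at +0.81 with overlapping groups, and miR5211 at +0.78. The windows of these 3 sequences lie together on scaffold 6, from 24421040 to 24427319, with miR5211 and miR3627.1 on the plus strand and miR3627.2 on the minus strand. In these 3 sequences, 400 µM replicate 2 was the lowest library of its group. Of the 6 sequences in the list of citrus and woody plant families, miR3951 was called, 4 had higher values and 2 lower (3 and 3 under total-count scaling), and the median was 0.226. Without 400 µM replicate 2 the split was 3 and 3 with a median of −0.102.

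**Figure D3:**
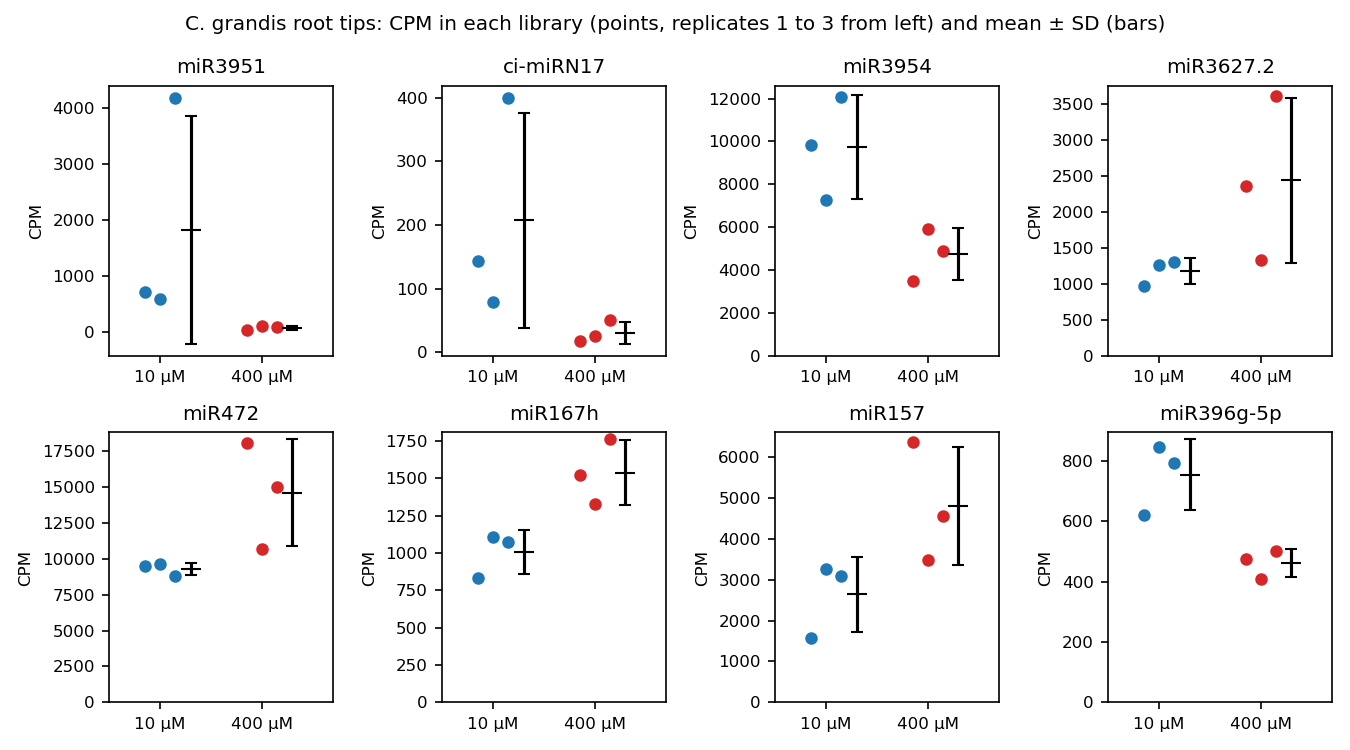
CPM in each C. grandis library (points, replicates 1 to 3 from left) with the mean ± SD (n = 3) for 8 sequences at 10 and 400 µM. miR3951 and ci-miRN17 passed the test, and for the other 6 sequences the groups do not overlap but adjusted p was 0.0789 or more.

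In the developmental timing families, all 4 sequences had higher values at 400 µM, with 0 passing and a median of 0.584. These miRNAs set the passage from juvenile to adult growth. miR157, of the family that acts on SBP factors, had 1581, 3257 and 3083 CPM at 10 µM and 6356, 3483 and 4552 CPM at 400 µM. Both groups were apart, with the lowest value in 10 µM replicate 1 and the highest in 400 µM replicate 1. Its log2 difference was +0.86 (SE 0.32, adjusted p = 0.202). miR156 averaged 4459.9 ± 1325 and 6761 ± 1359.6 CPM, at +0.60 (SE 0.30, adjusted p = 0.322), and its groups overlapped. Both rest in part on 10 µM replicate 1, without which miR157 was at +0.47 and miR156 at +0.26. The authors' target table lists 7 predicted targets of miR156, each with an SBP domain. miR172a-5p, from the miR172 hairpin whose other arm acts on AP2 factors, stood at +0.57, and miR156k at +0.44. All 4 values stayed above 0 under every alternative scaling and with each library left out, where the median ran from 0.343 to 0.780.

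Growth and differentiation factors form the list with the largest number of conserved sequences. Of its 15 members 12 were higher and 3 lower, beside 51.6% higher over all sequences tested. None of the 15 passed, and the median was 0.313. The higher members include all 3 miR159 and all 6 miR319 sequences. Some of these are near-identical across the families, such as miR319 and miR159 at an edit distance of 1, so they may not be independent measurements. The split was 10 and 5 under total-count scaling and 9 and 6 without 10 µM replicate 1 or without 10 µM replicate 2, and the median without the latter was 0.0522. ath-miR159a (scaffold_3_17340), a 21-nt regulator of MYB factors and one of the most abundant miRNAs of these root tips, had 106424, 96755 and 142206 CPM at 10 µM and 169514, 169738 and 159563 CPM at 400 µM. The 400 µM libraries lay close together above the controls, and the sequence was at +0.53 on the log2 scale (SE 0.21, adjusted p = 0.239). A 20-nt form, ath-miR159a (scaffold_3_17782), was at +0.45 and miR159 at +0.93, so that all 3 miR159 sequences were higher. For miR159, 400 µM replicate 2 lay within the control range at 380.2 CPM. The authors' target table lists 1 predicted target of miR159 in C. grandis, with a protein kinase domain.

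miR319, which acts on TCP growth regulators, is present as 6 sequences. The following 5 cover the same core and differ at their ends, and they are shown because a shifted start changes the seed.
ppt-miR319a: uUUGGACUgaagggagcucc
miR319: aUUGGACUgaagggagcucc
ath-miR319a (scaffold_3_9221): uUGGACUGaagggagcuccc
ath-miR319a (scaffold_5_23391): uUGGACUGaagggagcuccu
gma-miR319g: uGGACUGAagggagcuccuuc
Such overlapping forms can share reads, which makes the split between them uncertain. All 6 had higher values at 400 µM and 0 passed, with a median range of 0.121 to 0.648 over the alternatives. miR319 had 2905, 2924 and 4759.8 CPM at 10 µM and 5232, 3537 and 9010.3 CPM at 400 µM. The groups overlapped, since 400 µM replicate 2 lay below 10 µM replicate 3, and the log2 difference was +0.75 (SE 0.31, adjusted p = 0.247), and +0.31 without 400 µM replicate 3. For miR319-5p, the arm opposite the TCP regulator, the values were 1773, 4271 and 2246 CPM at 10 µM and 8192, 1729 and 7969 CPM at 400 µM. Its 400 µM replicate 2 was the lowest of all 6 libraries while the other two were the highest, and the log2 difference was +1.11 (SE 0.63, adjusted p = 0.420), and +0.70 without 10 µM replicate 1. The remaining 4 forms stood between +0.21 and +0.43. The lowest of them, ath-miR319a (scaffold_3_9221), turned to −0.06 without 10 µM replicate 1 and to −0.11 without 10 µM replicate 2.

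The miR396 family acts on growth-regulating factors (GRF), and 1 of the 3 predicted targets of miR396g-5p in the authors' table is growth-regulating factor 3. It had 622, 846 and 792 CPM at 10 µM and 473, 409.7 and 501 CPM at 400 µM. The groups did not overlap, and the log2 difference was −0.71 (SE 0.27, adjusted p = 0.222). The abundant ccl-miR396 carries G7A relative to miR396g-5p and so has another seed.
miR396g-5p: uUCCACGGcuuucuugaacuu
ccl-miR396: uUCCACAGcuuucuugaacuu
Between the boron levels ccl-miR396 averaged 22670.3 ± 5187 against 21322 ± 4672 CPM, a log2 difference of −0.09 (95% interval −0.64 to 0.46). ptc-miR396f, with the seed of miR396g-5p, stood at −0.03 (95% interval −0.54 to 0.48). Of the 5 miR396 sequences 2 were higher and 3 lower. Under total-count scaling, which moved the median of all sequences to −0.165, all 5 were lower. Without 400 µM replicate 1 the split was 4 higher and 1 lower. Over the alternatives the family median ran from −0.256 to 0.11.

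**Figure D4:**
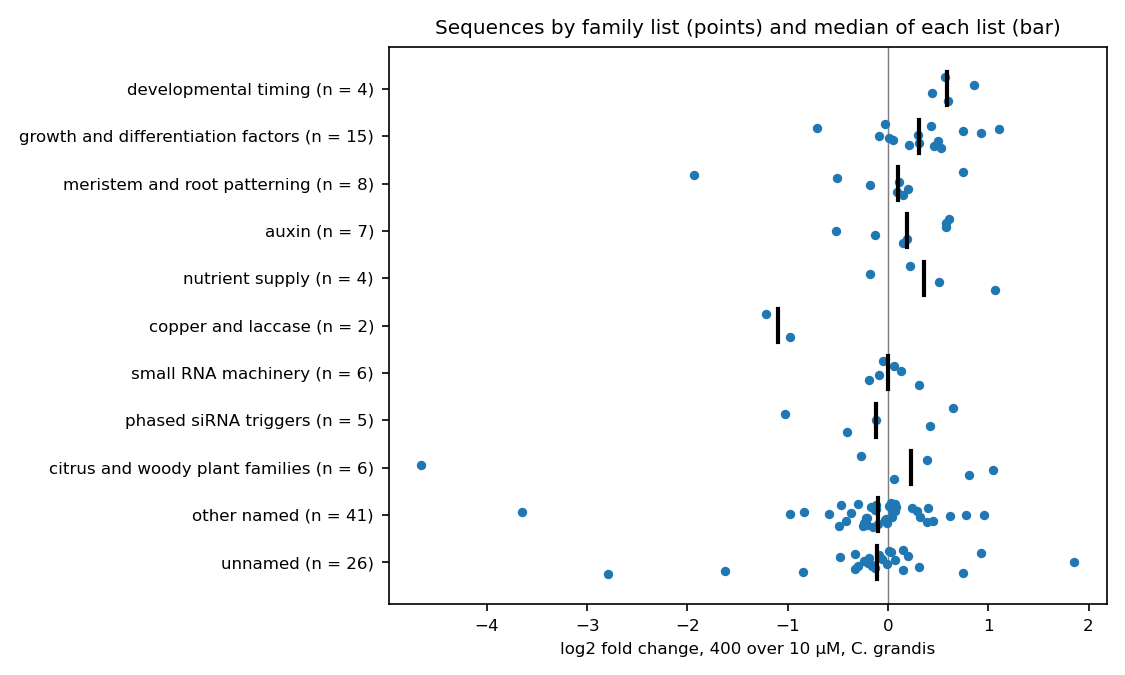
Log2 difference between 400 and 10 µM in C. grandis (horizontal axis) for each tested sequence (point) by family list, with the median of the list as a bar and n the tested sequences. The medians run from −1.10 for the 2 copper and laccase sequences to 0.584 for the 4 developmental timing sequences, beside 0.0117 over all sequences. The low end rests on 10 µM replicate 3, without which the copper and laccase median was −0.11.

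In the meristem and root patterning families, 5 of 8 tested sequences were higher and 3 lower, with 0 passing and a median of 0.0972, which turned to −0.101 under total-count scaling and ran from −0.0739 to 0.148 with 1 library left out. The 2 sequences named miR165a-3p, regulators of class III HD-ZIP factors, were among the most abundant of all. An entry of the scaffold_9_46062 sequence is also named csi-miR166a, so the names do not separate miR165 from miR166. ath-miR165a-3p (scaffold_9_46062) averaged 112150.0 ± 12949 against 129043 ± 25697 CPM, at +0.20 (95% interval −0.22 to 0.63). bdi-miR166f, of the same target class, covers the same core with a shifted start, at an edit distance of 4 from both. It had 559, 545 and 779 CPM at 10 µM and 515, 385 and 424 CPM at 400 µM. Its groups did not overlap, and the log2 difference was −0.51 (SE 0.21, adjusted p = 0.249). miR164b-3p had 109.6, 249 and 1592 CPM against 45.4, 343 and 125 CPM. Its difference of −1.93 (SE 0.86, adjusted p = 0.290) rests on 10 µM replicate 3, without which it was −0.18.

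The miR171 family acts on GRAS factors of the meristem. The authors' target table lists 3 predicted GRAS targets, all for the entry named miR171, and none for miR171b.3 or ath-miR171b-3p. miR171b.3, which stands at 4 entries, had 49.2, 38.8 and 66.9 CPM at 10 µM and 51.1, 54.0 and 158 CPM at 400 µM. The groups overlapped, and 400 µM replicate 3 stood alone above the others. The log2 difference was +0.75 (SE 0.49, adjusted p = 0.487), and +0.03 without that library. ath-miR171b-3p was at +0.11 (95% interval −0.63 to 0.84) and turned to −0.10 under total-count scaling. The sequence named miR9563, counted among the other named families, has the seed of ath-miR171b-3p and is an edit distance of 3 away. It went the other way, at −0.84. The entry named miR171, with 9, 1 and 9 against 1, 2 and 3 counts, had too few counts to be tested. Its log2 fold change in the authors' deposited table is −1.50.

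Among auxin families, 5 of 7 sequences were higher and 2 lower, 0 passed, and the median was 0.188 (4 higher and 3 lower under total-count scaling). Without 10 µM replicate 1 the split was 3 higher and 4 lower, with a median of −0.0371. The 3 miR167 sequences, regulators of auxin response factors, differ in their last bases (miR167h by G21U and miR167b-3p by G21A and A22U relative to miR167a) and share their seed. miR167a had 24074, 29741 and 22543 CPM at 10 µM and 47386, 33846 and 32514 CPM at 400 µM. miR167h had 836, 1105 and 1075 CPM against 1522, 1327 and 1761 CPM, and miR167b-3p 1496, 1926 and 1717 against 3000.1, 2276 and 2409 CPM. In all 3, each 400 µM library lay above each 10 µM library, beside 7.26% of all sequences tested. The log2 differences were +0.57 (SE 0.21), +0.61 (SE 0.19) and +0.58 (SE 0.20), with adjusted p = 0.203, 0.131 and 0.157. The values remained above 0 under every alternative, from 0.36 to 0.67 for miR167a, and DESeq2 called miR167h at adjusted p = 0.0372. Their reads are nearly the same, so they are not 3 independent measurements. The authors' target table lists 1 predicted target for miR167a, a Core-2/I-Branching enzyme, and 1 for miR167h, a Sin-like protein. Neither annotation names an auxin response factor. ath-miR390a-5p, which sets off the ta-siRNAs that act on auxin response factors, was at −0.52 (SE 0.25, adjusted p = 0.297).

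The nutrient families had 3 higher and 1 lower of 4 sequences, with 0 passing and a median of 0.364. The split depended on single libraries, with 1 higher and 3 lower without 400 µM replicate 3 (median −0.0936), and 2 and 2 without 10 µM replicate 2 (median −0.121) or without 10 µM replicate 3. ath-miR395a, a regulator of sulfate assimilation and transport, had 221, 323 and 110.0 CPM at 10 µM and 526, 147 and 703 CPM at 400 µM. The groups overlapped through 400 µM replicate 2, and the log2 difference was +1.07 (SE 0.51, adjusted p = 0.297). Leaving out 10 µM replicate 3 lowered it to +0.57, and leaving out 400 µM replicate 3 to +0.63. The authors' target table lists 1 predicted target of ath-miR395a, annotated as a thiolase. osa-miR169i-5p.2, named after a rice miRNA, had 736, 476 and 690.4 CPM at 10 µM and 541, 714 and 418 CPM at 400 µM. Its groups overlapped, at −0.18 (95% interval −0.82 to 0.45). The copper and laccase families had 2 lower values and 0 calls. In the authors' target table, the 1 predicted target of miR398 in C. grandis has a plastocyanin-like domain. miR398, which acts on copper superoxide dismutase transcripts, had 279.5, 291 and 1339.9 CPM against 229, 267 and 327 CPM, and miR397-3p 69.3, 123 and 432 CPM against 201, 68.7 and 41.5 CPM. For both, 10 µM replicate 3 was the highest library, and without it miR398 moved from −1.22 (SE 0.66) to −0.20. That library was also the highest for miR3951, ci-miRN17 and miR164b-3p. In C. sinensis miR398 was at −1.58 (95% interval −2.99 to −0.16, edgeR adjusted p = 0.966), and the median of the copper and laccase list was −1.49. The authors' deposited table gives C. sinensis false discovery rates of 0.00545 for miR398 and 0.0289 for miR397-3p, both lower.

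Sequences named after the small RNA machinery families (miR162, miR168 and miR403, which act on DCL1, AGO1 and AGO2) lay close to 0. They had 3 higher and 3 lower values and a median of 0.00213 (1 higher and 5 lower under total-count scaling). The list includes the 24-nt ath-miR403-3p (scaffold_5_25549) and ath-miR168b-3p, the latter an edit distance of 1 from atr-miR8553b (scaffold_3_9559). Among its 4 sequences under 23 nt, 2 were higher and 2 lower, with the same median. ath-miR162a-3p averaged 7006 ± 639.9 and 8692 ± 1529.6 CPM, at +0.31 (95% interval −0.12 to 0.75). The other named families had 16 higher and 25 lower of 41 values, with 0 calls. miR780 had 664, 1001 and 496 CPM at 10 µM and 486, 392 and 213 CPM at 400 µM. Its groups were apart and the log2 difference was −0.98 (SE 0.33, adjusted p = 0.157). miR5206, at 12691 ± 1752 and 19539 ± 6877 CPM, was at +0.62 (SE 0.26, adjusted p = 0.249), and at +0.36 without 400 µM replicate 3.

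Unnamed sequences included ci-miRN17 as their 1 call, with 10 higher and 16 lower of 26 values, and 4 higher and 22 lower without 10 µM replicate 3. miR-RN01, a 25-nt sequence, had 157, 123 and 149 CPM at 10 µM and 278, 216 and 224 CPM at 400 µM. No 400 µM library overlapped the controls, and the log2 difference was +0.75 (SE 0.22, adjusted p = 0.131). miR-RN03, at 136, 44.1 and 23.7 CPM against 18.9, 27.0 and 19.4 CPM, had overlapping groups and a difference of −1.63 (SE 0.67, adjusted p = 0.247), which was −0.77 without 10 µM replicate 1. The 21-nt miR-RN02 had 1210, 1852 and 1372 CPM at 10 µM and 529.98, 432 and 1506 CPM at 400 µM. Of its 400 µM libraries, replicate 3 lay within the control range and the other two below it, and the log2 difference was −0.85 (SE 0.41, adjusted p = 0.297). Without 400 µM replicate 3 it was −1.62, and edgeR called it (adjusted p = 0.0123). The 20-nt scaffold_1_3278, the most abundant sequence, held 22.2%, 17.3% and 25.2% of counts at 10 µM and 10.5%, 22.9% and 20.2% at 400 µM. Only 400 µM replicate 1 lay below the control range.

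By length, 43 of the 70 sequences of 20 to 22 nt had higher values and 27 lower, with a median of 0.151, whereas 17 of the 49 sequences of 24 nt were higher and 32 lower, with a median of −0.164. Each class holds 1 called sequence, miR3951 (21 nt) and ci-miRN17 (24 nt). The 21- and 22-nt miRNAs act mainly on mRNAs, while 24-nt small RNAs are known for directing DNA methylation. Under total-count scaling the split was 34 higher and 36 lower for 20 to 22 nt, and 7 higher and 42 lower for 24 nt. Without 10 µM replicate 1 the median for 20 to 22 nt was −0.0103, with 35 higher and 35 lower. The share of counts in 24-nt sequences was 11.4%, 10.3% and 7.13% at 10 µM and 7.16%, 7.71% and 10.8% at 400 µM, with overlapping groups.

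**Figure D5:**
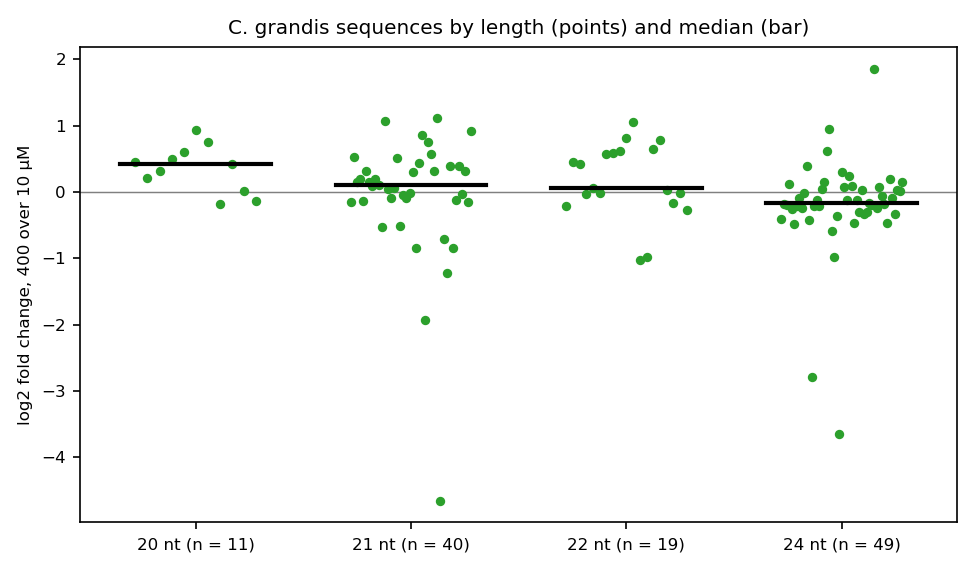
Log2 difference between 400 and 10 µM in C. grandis (vertical axis) for each tested sequence (point) by length, with the median as a bar and n the tested sequences. The bar lies at 0.427 for 20 nt, 0.0972 for 21 nt, 0.062 for 22 nt and −0.164 for 24 nt.

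For quantities of whole libraries 9 exact permutation tests were run, two-sided, and with 3 libraries a group their smallest possible p is 0.1. The lowest p was 0.2, for the share of counts in conserved families, at 50.7% ± 4.20 and 55.4% ± 2.83, and every adjusted p was 1. The shares in 21-nt (44.8% ± 3.97 and 47.6% ± 2.26) and 22-nt sequences (20.1% ± 4.69 and 21.5% ± 5.99) had overlapping groups. Compared with the mean of the other libraries of its group, a library differed by more than 1 log2 unit in 11, 14 and 17 sequences at 10 µM and in 17, 21 and 20 at 400 µM, so no library stood far apart by this count.

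The authors' deposited table of boron-responsive miRNAs lists 37 entries (33 sequences) for C. grandis, 23 higher and 14 lower, with absolute log2 fold changes of 0.594 or more. Its smallest p is 0.00481, for miR3954, and its smallest false discovery rate 0.406. Of these entries 10 have p under 0.05 and 0 a false discovery rate under 0.05. In the fit, 31 of the 33 sequences were tested. All 31 had the same direction as in the authors' deposited table, from the same libraries, and 2 were called, miR3951 and ci-miRN17, beside 1.61% of all sequences tested. The groups did not overlap for 13 of the 33 sequences, beside 12.9% of all sequences tested. The authors chose their entries on these libraries, so neither count is independent evidence. miR9560 has a log2 fold change of 3.96 in the authors' deposited table, and its counts were 5, 7 and 0 at 10 µM and 161, 0 and 16 at 400 µM. Most of its counts come from 400 µM replicate 1, and it had too few counts for the test on all libraries. Without 400 µM replicate 2, whose count was 0, it entered the edgeR test and was called as higher.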

How the data were processed

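Small RNA counts of 12 libraries were used, 3 for each species and boron level, with TruSeq libraries sequenced single-end on an Illumina instrument, per the labels. The authors deposited whole-number counts per miRNA entry without normalisation. The deposited table of boron-responsive miRNAs gives the authors' log2 fold changes and their p-values with false discovery rates, used here for names and for 1 comparison. Its log2 cell for mir7496 shows a formula error. Name and identifier stand in each other's column in its first 3 entries and were exchanged. Mature sequences and coordinates were taken from the deposited table of identified miRNAs, whose hairpin score, made by the authors, was not used. The submitters' processing notes name DESeq, without a version.

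Of 172 entries 73 have a mature sequence that stands at more than 1 entry, and 13 of the 27 shared sequences had identical counts at all their entries. Each sequence was therefore represented by its entry with the highest total. The 126 sequences were filtered with filterByExpr (minimum count 10, which left out miR171 and miR9560) and tested with edgeR 4.0.16 (R 4.3.3), trimmed-mean scaling and a quasi-likelihood fit of 1 mean per group. Calls are two-sided Benjamini-Hochberg adjusted p under 0.05, SE is the absolute log2 difference over the root of F, and intervals are 95%. Family lists follow the family number. The text names every called sequence, the 8 smallest p in each direction, 2 members per list, the 5 most abundant sequences, the 10 top entries of the authors, and all miR319 and miR171 sequences; other sequences (partners by seed or position, further family members and miR9560) were chosen after their values were seen. The members, lists and rules were chosen with earlier results of these data known. Whether equal replicate numbers deviate together from their group means was checked in each species. They did in C. sinensis (correlations 0.463, 0.249 and 0.311) but not in C. grandis (−0.0736, −0.226 and 0.272). No label states what a replicate number stands for. DESeq2 1.42.0, scaling, filter, counting unit, libraries left out and the replicate block were alternatives, and the fit was tested on simulated data. The simulated libraries had the same starting mean and the same spread per sequence in both species. They therefore cannot decide how the fit treats sequences as unequal between the species as the called ones.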

Additional observations from a re-analysis of the deposited data

Results flagged for a closer look

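The boron effect on miR3951 differed between the species in the edgeR test of the difference itself, with a log2 difference of −4.61, C. grandis minus C. sinensis (SE 0.95, 95% interval −6.68 to −2.54, adjusted p = 0.0477). In C. grandis no 400 µM library reached the level of a 10 µM library, whereas the C. sinensis effect was −0.04 (95% interval −1.39 to 1.30). Its adjusted p ran from 1.63e-05 to 0.182 over the alternatives. In C. grandis the sequence stood at 0.0129% to 1.90% of its C. sinensis mean, and what part reads of C. sinensis origin have in it was not tested.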

How the results depend on the processing

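Both called sequences kept their direction under every alternative run, miR3951 from −5.13 to −3.29 (adjusted p 7.08e-12 to 0.0733) and ci-miRN17 from −3.31 to −2.03 (2.48e-06 to 0.189). The count of calls in C. grandis, 2 in the main test, was 0 in the 6 C. grandis libraries alone, 5 with DESeq2 and 1 to 5 with 1 library left out (1 without 400 µM replicate 1, 5 without 400 µM replicate 2, 4 without 400 µM replicate 3, 3 without 10 µM replicate 2). The count for the difference of effects, 1 in the main test, was 2 with total-count scaling, DESeq2 or the replicate block, 0 with every entry as a feature, and 0 to 2 with 1 library left out (2 without C. grandis 10 µM replicate 2). Replicate numbers did not pair the C. grandis libraries (correlations of deviations −0.0736, −0.226 and 0.272, with replicate 3 as the 1 that matched its own number best), and with the replicate block C. grandis kept 2 calls, miR3951 and ci-miRN17, both with all 12 libraries and with 6. The signs of small differences turned as follows, and the cause was not tested. csi-miR477b, ath-miR171b-3p and ath-miR165a-3p (scaffold_5_27452) stood at −0.096, −0.10 and −0.099 under total-count scaling, at −0.028, −0.033 and −0.031 with no filter and at −0.027, −0.029 and −0.033 with a mean CPM of at least 10. With 1 library left out they ran from −0.37 to 0.25, −0.15 to 0.22 and −0.097 to 0.14, bra-miR9563a-3p from −0.15 to 0.62, scaffold_1_3278 from −0.45 to 0.12 and ath-miR319a (scaffold_3_9221) from −0.11 to 0.67. The difference in total counts between boron levels, −446 in the main setting, was 17610 with every entry counted and 246 with the mean over entries. With 1 library left out it ran from −58230 to 29120. The difference in the share of counts ran from −5.47 to 0.651 percentage points for 20-nt sequences (main setting −3.08). For 22-nt sequences it ran from −2.02 to 3.72 percentage points (main setting 1.35). The difference in the number of detected sequences ran from −0.833 to 0.167 (main setting −0.333). Low counts limit mir7496 and miR171, for which no change could be shown at this depth, while miR9560 entered the test and was called without 400 µM replicate 2.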
